A study of Mus musculus with 2 samples.

Results

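Intronic distal DNase I hypersensitive sites (DHS) were examined in splenic B cells of mice. A DHS was counted as intronic and distal when it lay on chromosomes 1 to 19, overlapped the body of an annotated gene, touched no annotated exon, and stayed clear of the window around every annotated transcription start site (TSS), which reaches 5 kb upstream and 2 kb downstream. The GENCODE M1 annotation on mm9 was used, with genes of all types. By this rule 10178 of the 46610 DHS on these chromosomes were members, or 21.8% (95% Wilson interval 21.5 to 22.2), and the whole peak list held 47542. The B cells came from C57/Bl6 animals of 8 weeks with the genotype Trp53+/+ and a mock treatment, and were enriched from spleen with B220 MicroBeads on magnetic columns. The series holds 1 DNaseI library and 1 input library of the same cells. Only the peak list of the DNaseI library was used here. Per the methods of the study, the mice were the non-irradiated controls of an irradiation experiment, and apoptotic cells were removed on a Ficoll gradient before digestion.

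DNase I cuts DNA that is not wrapped in nucleosomes more readily than DNA that is, so a DHS marks a stretch where proteins other than histones can reach the DNA. Introns carry many of the enhancers of mammalian genomes, which bind sequence-specific transcription factors and can act on the promoter of the gene that hosts them or on that of a neighbour. In the B lineage, factors such as Pax5, Ebf1, Ets family proteins and Ikaros bind such elements, and several of the genes that encode them are themselves under the control of enhancers in their own introns.

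To show the regions behind the counts, the central 200 bp of the highest-scoring intronic DHS are given for the 6 genes with most such DHS among 23 B lineage transcription factor genes. The genes are Foxp1 (a forkhead factor needed for early B cell development), Ets1 (founding member of the Ets family), Ebf1 (early B cell factor 1), Bach2 (a repressor that restrains plasma cell differentiation), Ikzf1 (the gene of Ikaros) and Mef2c (a MADS box factor). Sequences are of the + strand of mm9, and capitals mark matches to any of 15 short words listed further on, on either strand.
Foxp1, chr6:99211395-99211594: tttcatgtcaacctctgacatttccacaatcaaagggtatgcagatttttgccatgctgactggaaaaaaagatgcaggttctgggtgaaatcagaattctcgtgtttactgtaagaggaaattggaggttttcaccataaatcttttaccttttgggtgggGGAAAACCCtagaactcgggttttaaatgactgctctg
Ets1, chr9:32459086-32459285: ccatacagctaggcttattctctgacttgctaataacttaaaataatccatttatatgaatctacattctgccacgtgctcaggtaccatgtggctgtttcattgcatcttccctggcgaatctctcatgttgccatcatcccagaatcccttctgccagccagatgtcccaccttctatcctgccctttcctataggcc
Ebf1, chr11:44578352-44578551: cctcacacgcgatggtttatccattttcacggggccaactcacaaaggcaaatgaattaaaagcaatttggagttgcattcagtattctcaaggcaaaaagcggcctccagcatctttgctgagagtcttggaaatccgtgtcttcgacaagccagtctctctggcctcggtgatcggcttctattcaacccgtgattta
Bach2, chr4:32445802-32446001: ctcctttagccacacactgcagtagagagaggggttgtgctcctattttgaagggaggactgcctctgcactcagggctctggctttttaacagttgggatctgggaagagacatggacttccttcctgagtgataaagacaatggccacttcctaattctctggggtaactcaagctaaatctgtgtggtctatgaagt
Ikzf1, chr11:11666711-11666910: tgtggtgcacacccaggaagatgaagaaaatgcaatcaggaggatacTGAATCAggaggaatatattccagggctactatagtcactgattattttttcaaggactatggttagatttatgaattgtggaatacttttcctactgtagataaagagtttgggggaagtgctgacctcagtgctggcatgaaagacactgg
Mef2c, chr13:83711110-83711309: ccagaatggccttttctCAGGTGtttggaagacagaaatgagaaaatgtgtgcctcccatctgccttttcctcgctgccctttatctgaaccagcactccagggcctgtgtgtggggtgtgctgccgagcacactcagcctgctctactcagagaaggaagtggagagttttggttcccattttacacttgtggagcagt
These centres held few of the words. The Foxp1 stretch held an NF-kB word on the minus strand, the Ikzf1 stretch an AP-1 word and the Mef2c stretch an E2A word, whereas those of Ets1, Ebf1 and Bach2 held none of the 15. The Foxp1 DHS lay in intron 1 of 24 and, since the 2 genes overlap, also in an intron of Eif4e3. The others lay in intron 2 of 10 of Ets1, intron 6 of 16 of Ebf1, intron 3 of 9 of Bach2, intron 11 of 12 of Ikzf1 and intron 3 of 13 of Mef2c. Introns were numbered from the start of the gene as the gaps between the merged exons of all its transcripts, so that a number can differ from that in a single transcript.

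A further set shows the PU.1 word, for which the share of intronic DHS is among those farthest above their surroundings. PU.1 is an Ets family factor of B and myeloid cells. Shown is the word with 30 bp on each side in the 6 highest-scoring intronic DHS that held it in their central 300 bp. The capitals have the same meaning as before, and the word reads GAGGAAGT or, on the minus strand, its reverse complement. This set was chosen after the values were seen.
Hvcn1, chr5:122669741-122669808: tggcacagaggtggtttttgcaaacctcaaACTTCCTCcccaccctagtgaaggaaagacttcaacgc
Man1a, chr10:53760211-53760278: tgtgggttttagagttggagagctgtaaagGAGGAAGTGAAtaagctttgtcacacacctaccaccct
Grk5, chr19:61160134-61160201: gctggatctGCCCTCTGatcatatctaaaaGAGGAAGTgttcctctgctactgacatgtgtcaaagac
Fli1, chr9:32307820-32307887: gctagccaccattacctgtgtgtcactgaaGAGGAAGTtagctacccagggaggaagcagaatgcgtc
Tspan4, chr7:148666944-148667011: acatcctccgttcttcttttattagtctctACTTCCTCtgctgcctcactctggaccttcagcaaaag
Prkce, chr17:86736525-86736592: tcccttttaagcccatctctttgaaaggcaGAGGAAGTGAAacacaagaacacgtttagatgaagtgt
The host genes of these DHS encode the voltage-gated proton channel (Hvcn1), a Golgi mannosidase (Man1a), a kinase of G protein-coupled receptors (Grk5), the Ets factor FLI1 (Fli1), a tetraspanin (Tspan4) and protein kinase C epsilon (Prkce). Their scores ran from 450 at Hvcn1 to 159 at Prkce. In Man1a and Prkce the PU.1 word ran into an EICE word, the composite site of an Ets factor and an IRF, and in Grk5 a CTCF word lay beside it.

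Intronic distal DHS were weaker and narrower than other classes. Each peak carries a score from the peak caller of the authors, on a scale that is not stated. The score of intronic DHS had a median of 22.5 (95% interval 22.1 to 22.8), with quartiles at 14.8 and 38.1 and a range from 5.12 to 450. It was 25.4 (24.9 to 25.8) over 12062 intergenic distal DHS, 28.2 (27.2 to 29.6) over 2414 distal DHS that touched an exon and 53.99 (52.9 to 55.1) over 21956 promoter DHS. The median width was 552 bp (542 to 562) against 635 bp (620 to 652) for intergenic distal DHS. As intronic DHS were defined by touching no exon and no TSS window, wide peaks had less chance to qualify. Of all DHS, the intronic share was 32.7% in the lowest 10% of scores and 4.40% in the highest 10%. Only 205 intronic DHS, or 2.01% (1.76 to 2.31), were among the top 10% of all scores, against 3.76% (3.44 to 4.12) of intergenic distal DHS. With 1 library there is no replicate error, depth is unknown, and the intervals given throughout cover counting error only. They take DHS as independent counts, although many lie close together, as given below, so they are likely too narrow. The absence of a DHS means that none was called.

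Introns were richer in distal DHS than intergenic sequence. The eligible intronic sequence, that is the part of gene bodies outside exons and TSS windows, came to 773 Mb and held 13.2 DHS per Mb (exact Poisson interval 12.9 to 13.4). Intergenic sequence outside the same windows came to 1277 Mb and held 9.45 per Mb (9.28 to 9.62). The ratio was 1.39 (1.36 to 1.43). Intronic DHS were also nearer to a TSS, at a median of 14346 bp from the nearest one against 20794 bp.

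At like distance from a TSS the ratio was nearer to 1 up to 50 kb. Within 5 kb of a TSS, but outside the window, introns held 18.0 DHS per Mb and intergenic sequence 15.8, a ratio of 1.14 (1.02 to 1.29). The ratio was 0.954 (0.901 to 1.01) from 5 to 10 kb, 0.900 (0.854 to 0.948) from 10 to 20 kb and 0.994 (0.945 to 1.05) from 20 to 50 kb. It rose to 1.18 (1.09 to 1.29) from 50 to 100 kb and 1.37 (1.20 to 1.56) from 100 to 200 kb. The density in introns fell from 18.9 per Mb at 5 to 10 kb to 1.43 per Mb beyond 200 kb, where 43 intronic DHS lay. By chromosome it ran from 10.04 per Mb on chromosome 3 to 19.6 on chromosome 19, and the ratio to intergenic sequence from 1.10 on chromosome 9 to 2.02 on chromosome 16. On all 19 chromosomes the ratio was above 1, although its interval included 1 on chromosomes 9 and 10.

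**Figure D1:**
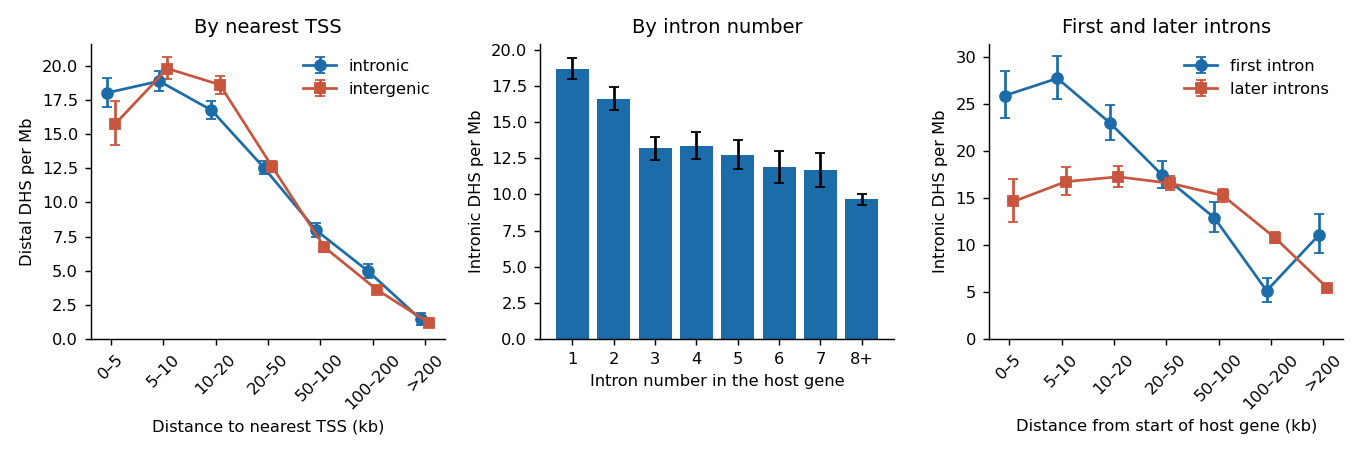
Density of distal DHS per Mb of eligible sequence, with 95% Poisson intervals, by distance to the nearest TSS for introns and intergenic sequence (left), by intron number in the protein-coding host gene (centre), and by distance from the start of the host gene for first and later introns (right). Introns and intergenic sequence run close together up to 50 kb, with introns higher from 50 to 200 kb (ratios of 1.18 and 1.37), first introns lie above later ones up to 20 kb, and the first-intron point beyond 200 kb rests on a single gene model, Gm20388.

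Most intronic DHS lay in protein-coding genes. Of the 10178, 9732 (95.6%) had at least 1 protein-coding host, 9500 had exactly 1 and 232 had 2 or more. The remaining 446 lay only in genes of other types, of which 247 were in lincRNA genes, 171 in processed transcripts, 21 in pseudogenes and 7 in both of the first 2 types. For 6849 of those with a protein-coding host, or 70.4% (69.5 to 71.3), the nearest TSS of any gene was that of a host. Among TSSs of protein-coding genes alone the share was 84.0% (83.3 to 84.7). For the rest the nearest protein-coding TSS belonged to a gene that did not host the DHS.

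First introns were richer than later ones. Counted over 9972 pairs of a DHS and a protein-coding intron, first introns held 2623 DHS in 140 Mb of eligible sequence, or 18.7 per Mb (18.0 to 19.4), and later introns 7349 in 605 Mb, or 12.1 per Mb (11.9 to 12.4). The ratio was 1.54 (1.47 to 1.61), and first introns held 26.3% of the pairs with 18.8% of the sequence. The second intron followed at 16.6 per Mb (15.8 to 17.4), introns 3 to 7 lay between 13.4 and 11.7, and those from the eighth on held 9.66 (9.27 to 10.1). The neighbours among introns 3 to 7 had overlapping intervals. In genes of at least 3 introns the last one held 11.7 per Mb (10.7 to 12.7), against 12.1 (11.8 to 12.4) in the middle ones.

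The ratio of first to later introns differed with distance from the gene start. Less than 5 kb from the gene start first introns held 25.9 DHS per Mb and later introns 14.6, a ratio of 1.77 (1.48 to 2.13). It was 1.66 (1.47 to 1.87) from 5 to 10 kb, 1.33 (1.20 to 1.48) from 10 to 20 kb and 1.05 (0.960 to 1.16) from 20 to 50 kb, where the interval included 1. From 50 to 100 kb it was 0.845 (0.738 to 0.963) and from 100 to 200 kb 0.476 (0.365 to 0.611), so that there later introns were the denser ones. Beyond 200 kb the ratio was 2.04 (1.67 to 2.47), and it dropped to 0.0519 (0.00627 to 0.188) without the 3 gene models that have an intron over 1 Mb, an alternative chosen after seeing the data. By intron length the ratio of first to later introns lay between 1.28 and 2.05 in 6 classes, each with an interval above 1. Without those 3 gene models it was 1.02 (0.874 to 1.19) for introns over 100 kb.

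Introns with a DHS were long ones. A DHS was found in 5460 of 130438 introns with eligible sequence, and 3430 of these held exactly 1, 293 held at least 5 and 49 at least 10. Their median length was 12256 bp, against 1799 bp for introns without. Per Mb, introns of 20 to 50 kb held most, at 18.7 (18.0 to 19.4), an interval that overlapped the 18.2 (17.4 to 19.1) of introns of 10 to 20 kb. Introns above 100 kb held least, at 6.53 (6.13 to 6.95). Along introns of 20 kb or more the DHS were spread evenly, with 11.9, 12.5, 12.5, 12.7 and 11.8 per Mb in 5 successive parts of equal length. Many neighbours within an intron lay close together, although no expected gap was computed. Peaks under 500 bp apart counted as separate DHS here, and with such peaks merged there were 7961 intronic DHS in place of 10178. Of 4512 pairs of neighbours in the same intron, 55.4% (53.98 to 56.9) were less than 2 kb apart, 82.9% (81.8 to 84.0) less than 10 kb, and the median gap was 1489 bp.

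Intronic DHS were spread unevenly over genes. A gene was counted as a host when it held at least 1, and 3480 of 14475 protein-coding genes with at least 1 kb of eligible intronic sequence did so (24.0%). With 1 gene below that minimum there were 3481 hosts. Of these, 1610 held 1 DHS, 1317 held 2 to 4, 401 held 5 to 9 and 153 held 10 or more. The median was 2 and the mean 2.86, and hosts with 5 or more held 49.2% of all pairs of a DHS and a gene. The 348 genes that make up the top 10% of hosts, each with 6 or more, held 38.2% (37.3 to 39.2) of all pairs and 22.6% of the eligible sequence of hosts. They were ranked by their DHS count, with ties broken in favour of less eligible sequence. A share of pairs above their share of sequence was therefore built in. Gene size entered here, since the median host had 44.7 kb of eligible sequence and the median gene without an intronic DHS 12.5 kb. Over hosts, the number of DHS and the eligible sequence had a Spearman rank correlation of 0.458, a description across genes of 1 library.

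Host genes more often had an accessible promoter as well. The rule left peaks in TSS windows out of the class, but did not use whether a host gene had such a peak. A promoter DHS, one overlapping the same window around a TSS of the gene, was present at 9273 of the 14475 genes (64.1%). The share was 57.8% (56.9 to 58.7) of 10995 genes without an intronic DHS, 80.0% (78.0 to 81.9) of 1609 genes with 1, 84.1% (82.0 to 85.9) of 1317 with 2 to 4, 93.5% (90.7 to 95.5) of 401 with 5 to 9 and 94.8% (90.0 to 97.3) of 153 with 10 or more. The last 2 intervals overlapped. The median score of the best promoter DHS was 101 (99.2 to 103) in genes without an intronic DHS and 135 (115 to 148) in those with 10 or more. Put the other way, introns of genes with a promoter DHS held 22.1 DHS per Mb (21.6 to 22.5) and those of genes without one 3.37 (3.18 to 3.57), a ratio of 6.54 (6.16 to 6.96).

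The link held among genes of like size. Of genes with 20 to 50 kb of eligible sequence, 85.7% (83.4 to 87.7) of 1007 hosts and 62.0% (59.96 to 63.99) of 2234 others had a promoter DHS. The gap was widest among genes with over 200 kb, where 75.1% (70.2 to 79.3) of 345 hosts and 17.7% (14.3 to 21.6) of 413 others had one. It was 80.0% (71.4 to 86.5) of 105 against 58.1% (56.3 to 59.9) of 2889 in the smallest genes, those with 1 to 5 kb. The score of the best promoter DHS followed less well. In genes with 1 to 5 kb its median was 92.2 in hosts and 102 in the others, and it was higher in hosts in each class from 10 kb up, with 113 against 102 at 20 to 50 kb. Genes of over 200 kb also had the lowest density, at 6.91 intronic DHS per Mb (6.63 to 7.21), whereas classes from 5 to 100 kb lay between 18.8 and 19.6 per Mb.

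**Figure D2:**
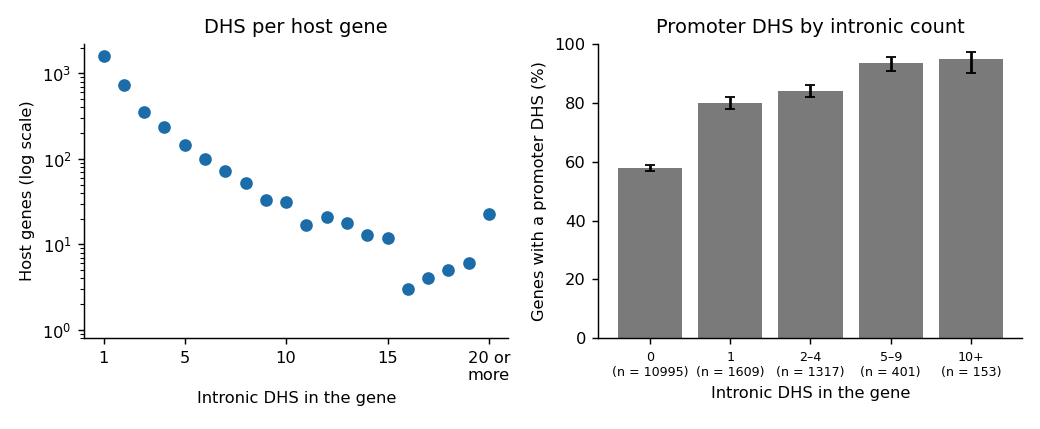
Left, number of protein-coding host genes by the number of intronic distal DHS they hold (log scale). Right, share of protein-coding genes with a promoter DHS by their number of intronic DHS, with 95% Wilson intervals and the number of genes. The share climbs from 57.8% of genes without an intronic DHS to 94.8% of genes with 10 or more.

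Among the 153 genes with 10 or more intronic DHS, 8 had no promoter DHS. They were Fgfr2 with 57 intronic DHS, Celf4 (a neuronal RNA-binding protein) with 23, A930011G23Rik with 20, AF064781 with 17, Agbl4 with 15, Ctif with 14, Med12l with 13 and Prkg1 (cGMP-dependent protein kinase 1) with 10. The highest scores of their intronic DHS ran from 93.4 at Celf4 to 343 at Med12l. In 4 of the 8, some of these DHS also lay in introns of an overlapping protein-coding gene that has a promoter DHS. These were all 17 of AF064781 (in Akap2 or Palm2), 11 of the 13 of Med12l (P2ry14 among the genes inside it), 27 of the 57 of Fgfr2 and 5 of the 15 of Agbl4 (in Bend5), and in AF064781, Med12l and Agbl4 the highest-scoring DHS was one of them. In Celf4, A930011G23Rik, Ctif and Prkg1 none was. These genes were singled out after their values were seen.

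Among the 20 gene models with most intronic DHS, 3 had an annotated intron over 1 Mb. Gm20388 had 122, all in a first intron of 4.38 Mb that spans 72 other protein-coding genes, and for 83 of them it was the only protein-coding host. Fgfr2, a fibroblast growth factor receptor, had 57 in an intron of 2.86 Mb that spans 31 genes, and for 29 of them it was the only host. Arfip1 had 26, and an intron of 1.20 Mb. Each of these introns rests on a single annotated transcript, so the 3 counts follow the gene model.

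The other gene models among the 20 with most intronic DHS had annotated introns of 1 Mb or less. Eif4e3 (a cap-binding protein) had 37 and Foxp1 29, and they share 1 DHS, the one in intron 1 of Foxp1 shown above. The annotated Eif4e3 model spans 409 kb and overlaps the start of the annotated Foxp1 on the same strand. The counts and intron numbers of both genes follow these models. Whether DHS counted for Eif4e3 belong to Foxp1 was not tested. Arid1b, a subunit of the BAF chromatin remodelling complex, had 31, with scores from 6.35 to 247 and a median of 28.8. Prkce and Arhgap26 (a GTPase-activating protein) had 28 each, and Ets1 and Lpp (a LIM domain protein) 27 each. Sgms1 (sphingomyelin synthase 1) had 26 and Elmo1 (a partner of DOCK proteins in Rac activation) 24. Ebf1, Celf4, Xylt1 (a xylosyltransferase) and Rad51l1 had 23 each. Ubac2, Zmiz1 (a transcriptional coactivator) and Hivep3 (a zinc finger protein) had 22 each, and Asap1 (a GTPase-activating protein of ARF) had 21. Leaving aside the 3 gene models with an intron over 1 Mb, the intron with most was intron 8 of 9 of this Eif4e3 model, with 18 DHS in 127 kb.

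Density picked out other genes. Among hosts with at least 5 intronic DHS, Adrbk1 (G protein-coupled receptor kinase 2) came first with 5 in 6.40 kb of eligible sequence, or 78.2 per 100 kb. Tspan14 (a tetraspanin) had 19 in 55.9 kb, or 34.0 per 100 kb, 12 of them in its first intron. Then came 4930420K17Rik with 32.1, Ppp6r1 (a regulatory subunit of protein phosphatase 6) and Map3k14 (the kinase NIK of non-canonical NF-kB signalling) with 25.7 each, Ets1 with 25.3, Cxxc5 with 25.2, Stk17b (a serine/threonine kinase) with 24.4, Hdac7 (a class IIa histone deacetylase) with 24.4 and St3gal6 (a sialyltransferase) with 24.2. Of these 10 genes, only Ets1 was also among the 20 with the highest counts.

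At the other end stood long genes without any. The 5 protein-coding genes with most eligible sequence and no intronic DHS were Cntnap2 (2198 kb), Ptprd (2138 kb), Lrp1b (1991 kb), Macrod2 (1892 kb) and Dlg2 (1837 kb). Cntnap2, Ptprd and Dlg2 encode neuronal adhesion or synaptic proteins. None of the 5 had a promoter DHS.

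Intronic DHS were then counted over gene lists. Of 20 B lineage transcription factor genes with eligible sequence, 18 were hosts, or 90% (exact interval 68.3 to 98.8), against 24.0% of all genes. These genes are larger than most, with a median of 65.1 kb of eligible sequence against 17.4 kb over all genes, and of all genes with 50 to 100 kb 45.6% (43.2 to 47.9) were hosts. The 20 genes held 170 DHS, with a median of 5 per gene against 0 over all genes tested, and a density of 82.0 per Mb (70.2 to 95.3) against 13.4 (13.1 to 13.7) over all genes. Of 21 genes of B cell receptor signalling, 18 were hosts (85.7%, 63.7 to 97.0), with 140 DHS, a median of 7 and 70.7 per Mb (59.5 to 83.5), and a median size of 76.5 kb. A promoter DHS was present at all 20 and all 21 of these genes, against 64.1% of all genes. The lists were drawn up with earlier results of these data known.

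**Figure D3:**
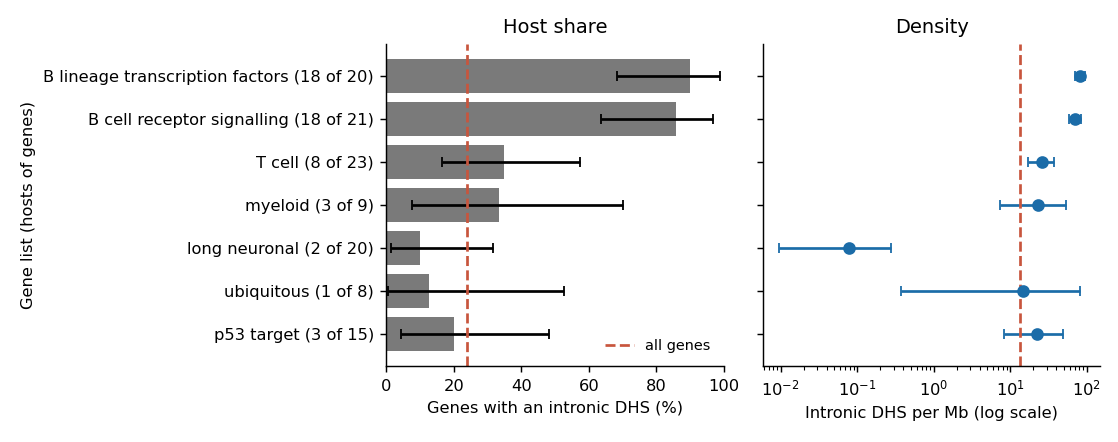
Share of genes with at least 1 intronic distal DHS in 7 gene lists, with exact binomial intervals (left), and intronic DHS per Mb of eligible sequence over each list, with Poisson intervals (right, log scale). Dashed lines give all protein-coding genes with at least 1 kb of eligible sequence. Both B cell lists lie above the lines at 90% and 85.7%, and the long neuronal genes lie lowest in density.

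Within the transcription factor list 10 genes held 5 or more. Foxp1 had 29, with scores from 9.27 to 153 and a median of 25.9, of which 8 were in intron 3. The 27 of Ets1 scored from 7.61 to 101 with a median of 22.2, lay from 9.14 to 112 kb from the gene start, and fell in 7 introns, 11 of them in intron 4. Ebf1 had 23 with scores from 10.7 to 191, of which 12 lay in intron 6, the intron of the highest. None of the 23 lay in its first intron, and the highest was 148 kb from the gene start.

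Ikzf1 and Bach2 had 14 each. Those of Ikzf1 began 31.5 kb from the gene start and had a highest score of 73.1, whereas those of Bach2 reached 317 kb and a score of 138. Mef2c had 12, 8 of them in intron 3. Pax5, the factor that maintains B cell identity, had 11 with a median score of only 12.9, and yet 1 of them scored 315. Runx1, a Runt family factor, had 10, 9 in intron 2, and none above a score of 29.4. Ikzf3 (the gene of Aiolos) and Foxo1 had 6 each, and all 6 of Foxo1 were in its first intron.

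The list genes without an intronic DHS were Tcf3 (the gene of E2A, 3.14 kb of eligible sequence) and Irf4 (11.3 kb), and Irf8, Spib and Klf2, which had less than 1 kb. Each of these 5 had a promoter DHS, with scores from 116 at Tcf3 to 280 at Klf2.

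**Figure D4:**
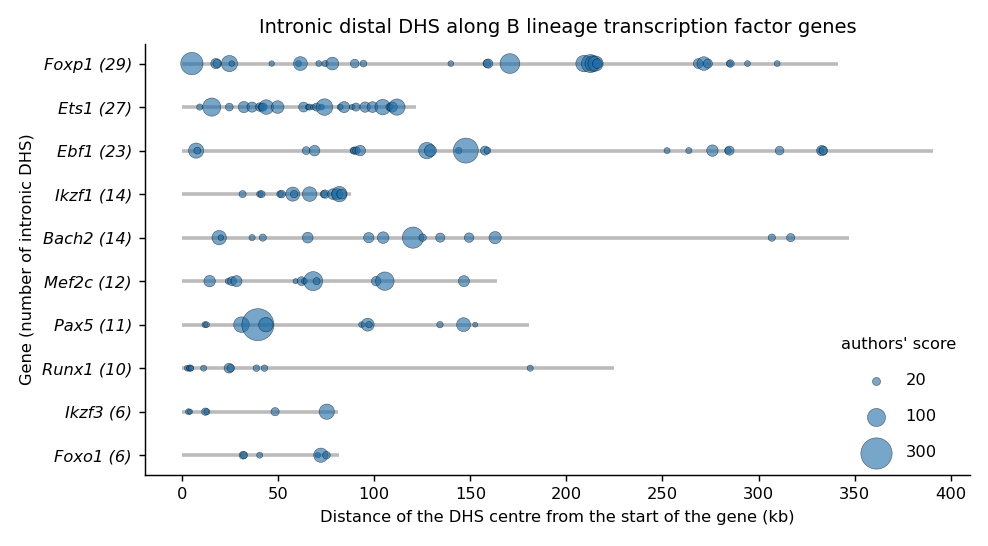
Intronic distal DHS of the 10 B lineage transcription factor genes with at least 5, drawn along each gene from its start (kb, grey bar for the gene body), with the area of each point in proportion to the authors' score. Foxp1 and Ebf1 carry DHS over more than 300 kb, Ikzf1 in the part beyond 31.5 kb, and Pax5 1 DHS with a score of 315 among weaker ones.

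In the receptor signalling list 13 genes held 5 or more. Prkcb (protein kinase C beta) and Pik3ap1 (the adaptor BCAP) had 17 each, with 15 of Prkcb in intron 3 and 12 of Pik3ap1 in intron 2. The highest score of Pik3ap1 was 273, the most in the list. Vav2 (a guanine nucleotide exchange factor) had 13. Lyn (a Src family kinase), Plcg2 (phospholipase C gamma 2) and Inpp5d (the inositol phosphatase SHIP1) had 10 each. The 10 of Inpp5d had a median score of 51.98, above the upper quartile of all intronic DHS, while those of Lyn had a median of 16.6.

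Ptprc (CD45) and Rasgrp3 had 9 each, and Bank1 had 8. Syk, named Sykb in the annotation, had 7, and Blk and Blnk (the adaptor BLNK) had 5 each. Without an intronic DHS were Cd22 (8.33 kb of eligible sequence) and Cr2 (30.6 kb), and Cd72, Cd79a, Cd79b and Ptpn6 with less than 1 kb. Each of these had a promoter DHS, with a score of 83.97 at Cd22 and 143 at Cr2.

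Genes of other cells were counted in the same way. Of 23 T cell genes with eligible sequence 8 were hosts (34.8%, 16.4 to 57.3), an interval that includes the 24.0% of all genes, although the density over the list was 25.9 per Mb (17.2 to 37.4), a ratio to the other genes of 1.94 (1.29 to 2.80). Only Il2ra, the gene of the interleukin 2 receptor alpha chain, held 5 or more, with 8 and a highest score of 101. Of 9 myeloid genes 3 were hosts (33.3%, 7.49 to 70.1), with 22.9 DHS per Mb (7.44 to 53.5), and both intervals include the value of all genes. Of 20 long neuronal genes 2 were hosts (10%, 1.23 to 31.7), against 45.5% (42.0 to 49.1) of all genes with over 200 kb. Nkain2, with 70.5 kb, was below that size. Over the 25.8 Mb of eligible sequence of the list 2 DHS were called, or 0.0774 per Mb (0.00937 to 0.280). The higher of these, with a score of 15.4, was in Lsamp. All 5 genes named above for most eligible sequence and no intronic DHS are in this list, so the 2 results are not independent. Of 8 ubiquitous genes 1 was a host, and of 15 p53 target genes 3 were (20%, 4.33 to 48.1).

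The labelled cell type was checked on markers. A promoter DHS was called at 6 of 6 B cell markers, with best scores of 83.97 or more, at 0 of 6 T cell markers, and at 4 of 6 myeloid markers, with best scores from 12.3 to 51.1. Of all genes tested 64.1% had one, and the myeloid count is near that share. In introns the B cell markers held 14 DHS, the T cell markers 0 and the myeloid markers 4, 2 each in Csf1r and Itgam. Over the whole lists, genes without eligible intronic sequence included, a promoter DHS was called at 12 of 25 T cell genes, with best scores from 24.5 to 97.7, and at 8 of 15 myeloid genes, with best scores from 12.3 to 89.1. The part of other cells in the results on T cell and myeloid genes was not tested.

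The highest-scoring intronic DHS lay in genes of diverse kinds. The first, with a score of 450 and a width of 2910 bp, was in intron 3 of 7 of Hvcn1 (chr5:122668413-122671322), and the second, with 344, in the lincRNA gene Gm16083. Then came Xpo6 (an exportin of actin) with 344, Med12l and P2ry14 with 343, Adora3 (the adenosine A3 receptor, under which the annotation has 2 gene models) with 340 and Adrbk1 with 338. Gm10684 and Scn2b (a sodium channel subunit), Kmo (kynurenine 3-monooxygenase), Pax5 and Man1a followed with scores from 329 to 305. Even the highest of these stood at the 99.9th percentile of all DHS on chromosomes 1 to 19, and Man1a, the last of these, at the 99.1st.

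The Pax5 DHS was also the widest of the class. It covered 6076 bp in intron 7 of 12 (chr4:44681885-44687960), 39.4 kb from the gene start, where the non-coding gene Gm12462 overlaps. The next in width were in intron 1 of Fli1 with 4718 bp, in Adora3 with 4698 bp, in intron 1 of Eif2c2 (Argonaute 2) with 4344 bp and in intron 2 of Sgk1 (a serum- and glucocorticoid-regulated kinase) with 4256 bp. At the narrow end, 273 intronic DHS shared the lowest width in the list, 334 bp. In the 23 DHS named for score, width or sequence, the share of 31-base words found more than once on chromosomes 1 to 19 and X had a median of 0.272%. It was 13.6% in the Sgk1 DHS and 7.82% in that of Gm16083, which are less certain for that reason, and under 5% in the other 21.

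Sequence was examined in the central 300 bp of each intronic DHS. The 15 words searched, each on both strands with no mismatch, included PU.1 (GAGGAAGT), ETS (CCGGAAGT), CTCF (CAGNGGGC), RUNX (TGTGGTTT or TGTGGTTA), OCT (ATGCAAAT), NF-kB (GGNNTTTCC), EBF1 (CCCNNGGGA), ISRE (GAAACNGAA), EICE (GGAANNGAA), MEF2 (CTATTTATA) and HNF1 (GTTAATNAT). The E box word was CAGCTG, which reads the same on both strands, and the related word of E2A proteins was CAGGTG, the core of many of their sites. Shorter words stood for AP-1, which was read as TGANTCA and is symmetric, and for GATA factors, which were read as AGATAAG throughout. The PU.1, ETS and EICE words share the core GGAA and can overlap. They are shortened forms of the sites these factors are known for, and a match is a description of the letters, not a binding site. As background served 366161 windows of 300 bp tiled over the eligible sequence of the same introns that touched no DHS.

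The PU.1 and ETS words stood farthest above the introns around them. The PU.1 word was in 4.40% (4.02 to 4.82) of intronic DHS and 1.79% (1.74 to 1.83) of the windows, a ratio of 2.46 (2.24 to 2.71). The ETS word was in 0.550% against 0.211%, a ratio of 2.60 (1.99 to 3.41). This word holds a CpG, and intronic DHS had a mean of 3.91 CpG against 2.91 in the windows. The comparison was not matched for CpG. For CTCF, the insulator protein, the shares were 7.28% and 3.95% and the ratio 1.84 (1.72 to 1.98). The ratio was 1.46 (1.34 to 1.59) for EBF1, 1.44 for both the E box (1.38 to 1.50) and RUNX (1.32 to 1.56), 1.31 (1.16 to 1.48) for ISRE and 1.27 (1.23 to 1.31) for E2A. NF-kB at 1.18 (1.09 to 1.28), EICE at 1.13 (1.07 to 1.20) and AP-1 at 1.08 (1.02 to 1.15) came last of the 11 words whose interval lay above 1. OCT, MEF2 and GATA, the last 2 better known from muscle and red blood cells, had intervals that included 1, and HNF1, a liver factor, lay below at 0.661 (0.514 to 0.851). Base composition moved with this, since the median GC content was 47.3% in intronic DHS and 44.3% in the windows. Against windows with a GC content within the quartiles of intronic DHS, 12 words had an interval above 1. Among these were OCT at 1.45 (1.26 to 1.67) and MEF2 at 1.61 (1.16 to 2.23), whereas the intervals of NF-kB at 1.04 (0.955 to 1.13) and HNF1 at 1.13 (0.875 to 1.47) included 1. PU.1 was at 2.10 (1.91 to 2.32), ETS at 1.99 (1.51 to 2.63) and CTCF at 1.56 (1.45 to 1.68). In intronic DHS at or above the median score of all peaks the ratio of PU.1 was 3.75 (3.29 to 4.27) and that of OCT 1.49 (1.22 to 1.82), whereas the intervals of AP-1 at 1.08 (0.968 to 1.20) and HNF1 at 0.718 (0.468 to 1.10) included 1.

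Intronic DHS were then set against other classes of DHS. Against intergenic distal DHS no word had a ratio above 1 beyond its interval, and 3 lay below it, CTCF at 0.864 (0.789 to 0.947), EBF1 at 0.864 (0.772 to 0.967) and NF-kB at 0.884 (0.794 to 0.984). For PU.1 the ratio was 1.07 (0.948 to 1.22). Against promoter DHS, which had a median GC content of 54.3%, 10 words had an interval above 1 and 3 below it. The ratio was highest for MEF2 at 2.21 (1.42 to 3.44) and RUNX at 2.14 (1.90 to 2.42), followed by HNF1 at 1.94 (1.37 to 2.73), OCT at 1.85 (1.55 to 2.22), AP-1 at 1.69 (1.56 to 1.83), GATA at 1.56 (1.38 to 1.77) and PU.1 at 1.49 (1.33 to 1.68). ISRE, EICE and the E box were the other 3. The ETS word was in 2.88% of promoter DHS and had the lowest ratio, 0.191 (0.146 to 0.251), and EBF1 and CTCF also lay below 1.

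**Figure D5:**
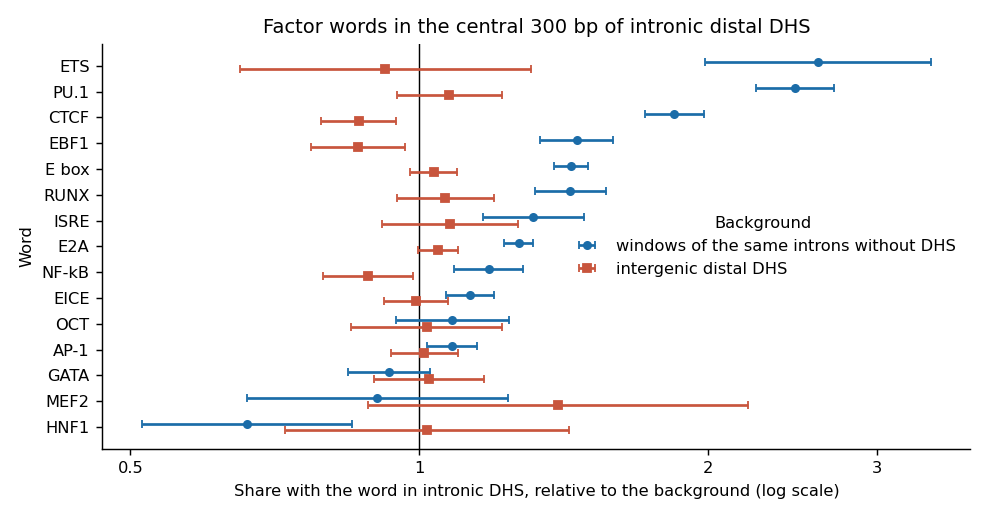
Share of intronic distal DHS with each of 15 words in the central 300 bp, divided by the share in windows of the same introns without DHS (circles) and by the share in intergenic distal DHS (squares), with 95% intervals on a log scale. ETS at 2.60 and PU.1 at 2.46 lie farthest above their introns, and the squares lie between 0.864 and 1.39, the latter for MEF2 with an interval that includes 1.

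Higher-scoring intronic DHS held some words more often. The PU.1 word was in 6.88% (5.96 to 7.93) of the 2545 at or above the upper quartile of the score (38.1) and 3.03% (2.43 to 3.77) of the 2544 below the lower quartile (14.8), a ratio of 2.27 (1.75 to 2.95). OCT, the site of the OCT1 and OCT2 factors, followed with 3.10% against 1.61%, a ratio of 1.93 (1.33 to 2.80). Ratios of ISRE (1.51, 1.06 to 2.16), CTCF (1.41, 1.16 to 1.71), NF-kB (1.36, 1.09 to 1.71) and EICE (1.26, 1.07 to 1.48) also lay above 1. EBF1 and GATA were equally common at both ends of the score, with ratios whose intervals ran from 0.785 to 1.27 and from 0.761 to 1.31. The median GC content was 48.0% at the upper end and 47.3% at the lower. Between first and later introns, ETS alone had an interval above 1, with 21 of 2497 DHS against 29 of 7144, a ratio of 2.07 (1.18 to 3.63).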

How the data were processed

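Splenic B cells were profiled by DNase-seq. Per the submitters' processing notes, BWA 0.6.2, SAMtools and mm9 were used; the peaks carry names of the MACS caller, whose version and settings for this library are not given in the sources used here. The authors deposited a BED list of peaks with a score on an unstated scale, and no read counts, so depth is unknown. Starts were converted to count from 1.

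Peaks were placed on GENCODE M1 (90317 TSSs on chromosomes 1 to 19). A DHS was assigned to a protein-coding intron by its centre. Scripts used Python 3.11.15, NumPy 2.4.6, pandas 2.3.3, SciPy 1.17.1 and matplotlib 3.10.9, and were tested on simulated data. With 1 library no test was possible. The intervals have a level of 95% (Wilson for shares, exact binomial for lists, exact Poisson for densities, exact conditional for their ratios, Katz for ratios of word shares, order statistics for medians).

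Members and lists were chosen with earlier results of these data known. Named are the 20 protein-coding genes with most intronic DHS, the 10 densest with at least 5, hosts of the 10 highest-scoring and 5 widest DHS, the 5 genes with most sequence and none, the intron with most, list genes with at least 5, and genes of both B cell lists without one. Some of the genes that this rule selects are not reported here. Sequence was read from the 6 genes of the B lineage factor list with most, leaving out chromosome 18. Genes were required to have 1 kb of eligible sequence. Spi1 and Syk were found as Sfpi1 and Sykb through RefSeq synonyms. The alternatives were windows of 1 kb around the TSS, protein-coding genes only, peak centres, peaks at or above the median score, peaks under 500 bp apart merged, chromosome X added, covered bases, single hosts, introns of the longest coding transcript, other minimums, and for words 500 bp windows and other backgrounds.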

Additional observations from a re-analysis of the deposited data

How the results depend on the processing

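Intronic DHS numbered between 7961 and 12408 under other windows, annotations and merging, and 3229 at or above the median score of all peaks, since intronic DHS score low. The ratio of intronic to intergenic density of 1.39 stayed above 1 and was 1.35 with windows of 1 kb, 1.34 with protein-coding genes only, 1.15 at or above the median score, 1.34 with peaks merged and 1.27 in covered bases. The first to later intron ratio was 1.77 with introns of the longest coding transcript. The share held by the top 10% of hosts was 30.8% at or above the median score, 37.0% with peaks merged and 37.1% without the gene models that have an intron over 1 Mb. The difference in median score between intronic and intergenic DHS, -2.94, was -1.95 among peaks between the quartiles of width. At or above the median score 0% of myeloid and 0% of long neuronal genes were hosts, and with at least 2 DHS required 0% of long neuronal and 0% of ubiquitous genes. Both B cell lists stayed within their intervals, as did the excess of promoter DHS at hosts. At or above the median score PU.1 moved from 2.46 to 3.75, and AP-1 (1.08) and HNF1 (0.718) had intervals that included 1. The interval of OCT, at 1.08 in the main setting, came to lie above 1 there (1.49) and over the central 500 bp (1.14). Against intergenic DHS as background 0 of 15 words had an interval above 1 in place of 11, and of the words whose interval had excluded 1 the ratio crossed 1 for ETS (0.922), CTCF (0.864), NF-kB (0.884), EBF1 (0.864), EICE (0.991) and HNF1 (1.02). It also did for MEF2 (1.39) and GATA (1.02), whose intervals included 1 in both. With windows of like GC content 12 words had an interval above 1. OCT (1.45) and MEF2 (1.61) joined these words, NF-kB (1.04) left them, and HNF1 was at 1.13, with an interval that included 1. Where no reason is given, the cause was not tested. No paired analysis was possible because there is 1 library. Depth is unknown, so weak DHS in introns may be missing from the list.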
